A study of Mus musculus with 2 samples.

Results

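The miR-130 and miR-301 family consists here of 4 miRNA genes, Mir130a, Mir130b, Mir301 and Mir301b, out of 2202 miRNA genes counted. Their rows were found by gene symbol in the GENCODE M21 annotation, and their main products share a seed. The rule uses no measured value, but the family was picked with earlier results of these data known. The counts came from microRNA sequencing of adrenal gland total RNA restricted to fragments under 30 bases. The animals were male B6CASTF1/J mice aged 10 days, F1 hybrids of C57BL/6J and CAST/EiJ with no further allele or treatment in the labels. The series is 1 group of 2 libraries, labelled biological replicates 1 and 2, from differently numbered males that the labels place under the same donor entry. The labels do not say whether glands of several animals were combined. There was no second condition.

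A miRNA is cut from a hairpin into a short strand that guides a silencing complex to messenger RNAs, mostly by pairing of the seed, bases 2 to 8 from the 5′ end. Genes with the same seed are therefore expected to share many targets. The family is known for repressing Pparg, the nuclear receptor of fat cell differentiation, and for roles in blood vessel growth, vessel stiffening and blood cell progenitors. The adrenal gland combines a steroid-producing cortex with a medulla of chromaffin cells, and it is densely supplied with capillaries.

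The sequences below are shown because the seed defines the family and because the bases after it decide whether reads of the members can be told apart. They are RefSeq entries on GRCm38.p6, written 5′ to 3′ with the seed in capitals.
miR-130a-3p: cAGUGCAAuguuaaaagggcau
miR-130b-3p: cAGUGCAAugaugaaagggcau
miR-301a-3p: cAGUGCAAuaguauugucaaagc
Mir301b hairpin: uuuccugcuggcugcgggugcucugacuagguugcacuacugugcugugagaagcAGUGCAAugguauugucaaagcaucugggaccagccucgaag
All 4 members matched the RefSeq table by symbol, 3 of them with a 3p product. For Mir301b the hairpin is printed, and its capitals mark the single place where the seed AGUGCAA occurs, starting at base 56 of 97.

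The products of Mir130a and Mir130b differ at 2 of 22 positions, counted from 1 at the 5′ end of miR-130a-3p, as U11A and A13G. The product of Mir301 follows miR-130a-3p for the first 9 bases and differs at 10 of the 22 positions compared. The family thus holds a close pair, Mir130a with Mir130b, and a form with another 3′ end, Mir301. The Mir301b hairpin shares its longest run, 16 bases, with Mir301. Over the 2202 annotated miRNA transcripts, read on both strands, the longest run that a Mir130a hairpin shares with another is 17 bases, with Mir6389. For Mir130b this run is 16 bases, with Mir6368. The RefSeq products of the 3 members with a 3p entry are 22 or 23 bases long, longer than these runs.

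The 5p strands of the same hairpins carry other seeds. That of miR-130a-5p is CUCUUUU and that of miR-130b-5p is CUCUUUC. The seed CUCUGAC is common to miR-301a-5p and miR-301b-5p. Reads were counted per gene, so the 2 arms of a hairpin are added together and values below are not for the 3p strand alone.

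The members lie at 3 loci of mm10, by the GENCODE M21 annotation. Mir130a (ENSMUSG00000065484.1) is on chromosome 2 from 84741115 to 84741178 on the minus strand, and no other annotated gene overlaps it. The nearest annotated gene, Gm19426, is 990 bases away. Mir301 (ENSMUSG00000065589.1) is on chromosome 11 from 87113004 to 87113089 on the plus strand, within an intron of Ska2, a gene of the spindle and kinetochore complex. Mir130b (ENSMUSG00000065572.1) spans 17124061 to 17124142 and Mir301b (ENSMUSG00000076288.1) spans 17124400 to 17124496, both on the minus strand of chromosome 16. These 2 genes are 257 bases apart inside introns of 2610318N02Rik. No member overlaps an annotated gene on the other strand, so counting with or without strand gives almost the same reads.

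Replicate 1 had 2843734 reads assigned to miRNA genes on their own strand, 37.9% of the reads in its file, and replicate 2 had 3080062, or 34.6%. Reads that matched several places made up 27.5% and 25.9% of the files and belong to no gene. Values are own-strand counts divided by the assigned total (CPM, per 1000000 reads), not scaled by gene length. The 95% intervals given are exact, Poisson for counts and binomial for shares and ratios. They treat reads as independent and cover counting error only. Reads without molecular identifiers are not independent molecules, so the intervals may be too narrow even for that error. The floor was set at 3 counts, which is 1.05 CPM in replicate 1 and 0.974 CPM in replicate 2. It is a chosen level and not an upper limit for a gene without reads.

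Mir130a made up most of the family in both libraries. It had 31849 reads in replicate 1, which is 11200 CPM (95% interval 11077 to 11323), and 15789 reads in replicate 2, which is 5126 CPM (5047 to 5207). It ranked 24 among all 2202 genes in replicate 1, 36 in replicate 2 and 29 by the mean of 8163 ± 4295 CPM (SD, n = 2). Mir130a is the member best known from endothelial cells and blood progenitors. Its level was higher in replicate 1, and the counting intervals of the 2 libraries did not overlap.

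Mir130b and Mir301 were more than 10 times lower than Mir130a in each library. Mir130b had 1843 reads or 648 CPM (619 to 678) in replicate 1 and 1008 reads or 327 CPM (307 to 348) in replicate 2, with a mean of 488 ± 227 CPM (SD, n = 2). Mir301, which yields miR-301a, had 1175 reads or 413 CPM (390 to 438) in replicate 1 and 275 reads or 89.3 CPM (79.0 to 100.5) in replicate 2, with a mean of 251 ± 229 CPM. Both were again higher in replicate 1. The lowest Mir130b value, in replicate 2, lay below the highest Mir301 value, in replicate 1, so these 2 genes were not separated by more than the spread between libraries, although Mir130b was the higher one within each.

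Mir301b was the least abundant member. It had 57 reads or 20.0 CPM (15.2 to 26.0) in replicate 1 and 32 reads or 10.4 CPM (7.11 to 14.7) in replicate 2, with a mean of 15.2 ± 6.83 CPM (SD, n = 2). By mean level Mir130b ranked 124, Mir301 152 and Mir301b 287 among the 2202 genes. The order Mir130a, Mir130b, Mir301, Mir301b was the same in both libraries. The ranges over the libraries were apart for Mir130a against Mir130b and for Mir301 against Mir301b.

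**Figure D1:**
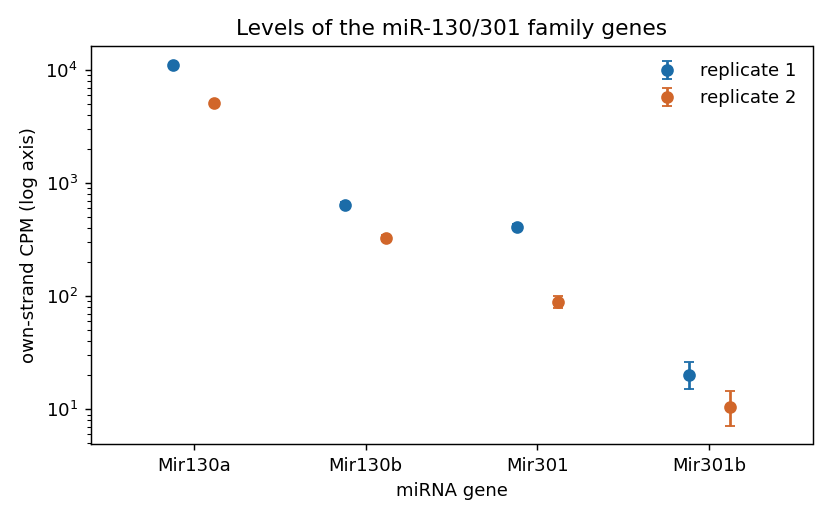
Own-strand CPM of the 4 members on a log axis, with 1 point per library and exact 95% Poisson intervals, which are smaller than the point for Mir130a. Each gene is higher in replicate 1, and Mir130a (11200 and 5126 CPM) stands far above Mir130b (648 and 327 CPM).

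RefSeq listed 4 further mouse genes whose product has the same seed. Their sequences are shown because no read was assigned to any of them.
miR-130c: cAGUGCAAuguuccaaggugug
miR-721: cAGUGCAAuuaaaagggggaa
miR-6341: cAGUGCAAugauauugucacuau
miR-6389: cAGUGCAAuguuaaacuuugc
Mir130c, Mir721, Mir6341 and Mir6389 all had 0 reads in both libraries, with and without strand. Of the 8 genes with this seed described here, the 4 members were those with assigned reads. Among the 4 genes without assigned reads, the product of Mir6389 has the longest start in common with miR-130a-3p, the first 15 bases. Reads that match several places are not assigned, so a count of 0 does not show absence.

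The family as a whole held 34924 reads in replicate 1 and 17104 in replicate 2. That is 1.23% of assigned reads (95% interval 1.22 to 1.24) in replicate 1 and 0.555% (0.547 to 0.564) in replicate 2, with a mean of 0.892% ± 0.476 (SD, n = 2). The share was 2.21 times as large in replicate 1. With Mir122, the main miRNA of hepatocytes, left out of the totals, the shares were 1.27% and 0.616%, a ratio of 2.06. Set against all reads in the file they were 0.465% and 0.192%, a ratio of 2.42.

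Within the family the share of Mir301 changed most between the libraries. Mir130a gave 91.2% of family reads in replicate 1 (90.9 to 91.5) and 92.3% in replicate 2 (91.9 to 92.7). Mir130b gave 5.28% (5.04 to 5.52) and 5.89% (5.55 to 6.26), and Mir301b 0.163% (0.124 to 0.211) and 0.187% (0.128 to 0.264). Mir301 gave 3.36% (3.18 to 3.56) in replicate 1 and 1.61% (1.42 to 1.81) in replicate 2. These shares do not depend on the library total. The share of Mir301 was lower in replicate 2, and its 2 intervals were far apart. The intervals of Mir130a and of Mir130b did not overlap between the libraries either. Shares of a family add up to the whole, so a shift in one member moves the others.

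Ratios between members show the same picture. Mir130a had 17.3 reads per read of Mir130b in replicate 1 and 15.7 in replicate 2. Against Mir301 it had 27.1 in replicate 1 and 57.4 in replicate 2. The neighbours Mir130b and Mir301b kept close to the same proportion, with 32.3 reads of Mir130b per read of Mir301b in replicate 1 and 31.5 in replicate 2. Mir301b was 3.00% of the reads of this pair in replicate 1 (2.28 to 3.87) and 3.08% in replicate 2 (2.11 to 4.32), so a difference was not detectable at this depth.

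**Figure D2:**
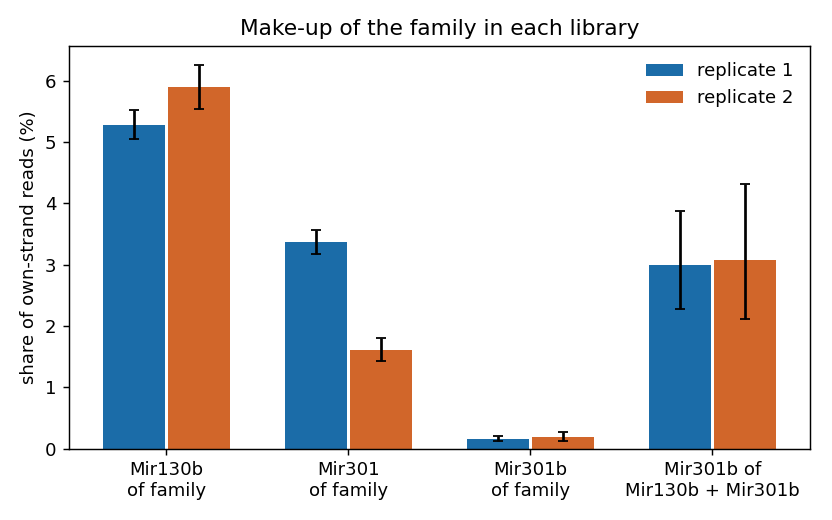
Share of own-strand reads in each library with exact 95% binomial intervals. The first 3 pairs of bars give Mir130b, Mir301 and Mir301b as percent of all family reads (Mir130a, the rest, is not drawn) and the last pair gives Mir301b as percent of Mir130b and Mir301b together. Mir301 is at 3.36% and 1.61%, while the share of Mir301b in its pair is 3.00% and 3.08%.

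All 4 members were lower in replicate 2 than in replicate 1. The log2 ratio of replicate 2 over replicate 1, with 0.5 counts added to each library, was -1.13 for Mir130a (95% counting interval -1.16 to -1.10), -0.99 for Mir130b (-1.10 to -0.87), -2.21 for Mir301 (-2.41 to -2.02) and -0.94 for Mir301b (-1.62 to -0.30). In a two-sided exact binomial test of each gene, adjusted by Benjamini-Hochberg over the 444 genes that had at least 10 counts, all 4 were lower in replicate 2, against 30.4% of the 444 genes. The adjusted p was 1.6e-70 for Mir130b, 8.0e-148 for Mir301 and 0.0056 for Mir301b, and that of Mir130a was below the smallest number the test could return. These p-values compare the reads of 2 libraries and not conditions. With 1 library on each side the difference has no replicate check.

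By size, 2 of the 4 members, Mir130a and Mir301, were at least 2-fold lower in replicate 2, against 11.0% of the tested genes. Mir130b, 1.98 times as high in replicate 1, and Mir301b, 1.92 times, lay just inside that bound. With TMM factors or with counts taken without strand they lay just past it, at -1.05 and -1.003 with the former and -1.06 and -1.01 with the latter. The median log2 ratio was -1.06 over the 4 members and 0.07 over all 444 tested genes, whose middle 50% lay between -0.48 and 0.59. Of the tested genes, 9.46% were as far down as Mir130a or farther, 11.5% as far as Mir130b and 13.1% as far as Mir301b. Mir301 stood farthest out, with 6 of the 444 genes, itself included, as far down.

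**Figure D3:**
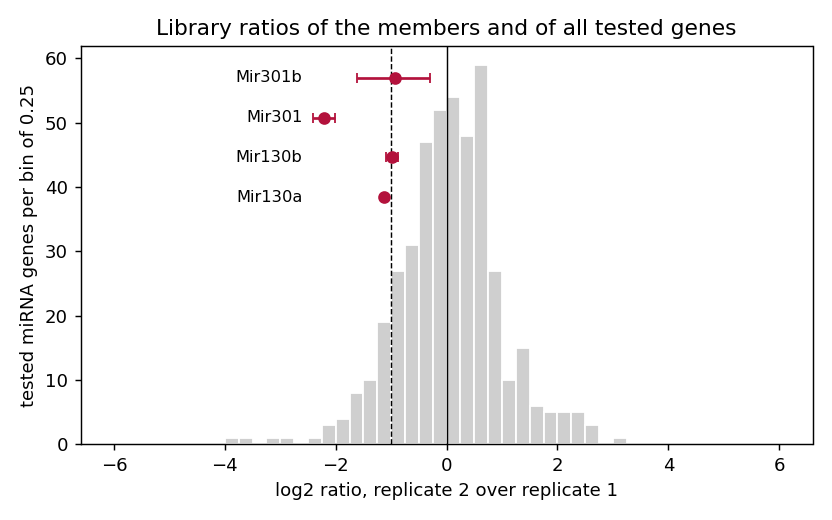
Histogram of the log2 ratio of replicate 2 over replicate 1 for all 444 tested miRNA genes in bins of 0.25, with the 4 members as points and exact 95% binomial intervals as bars at arbitrary heights. The dashed line marks 2-fold lower in replicate 2, and Mir301 at -2.21 is the only member whose interval lies wholly in the left tail beyond -2.

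Mir130b and Mir301b differed by 0.05 in their log2 ratios, while Mir301 differed from Mir130a by 1.08 and from Mir130b by 1.22. For comparison, 127 pairs of adjacent tested miRNA genes within 10000 bp on a strand had a median absolute difference of 0.67 (middle 50% 0.39 to 1.14). Of these pairs, 6 were as close as Mir130b and Mir301b or closer, that pair included. This comparison was chosen after the values were seen, and the interval of Mir301b is wider than most of these differences.

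**Figure D4:**
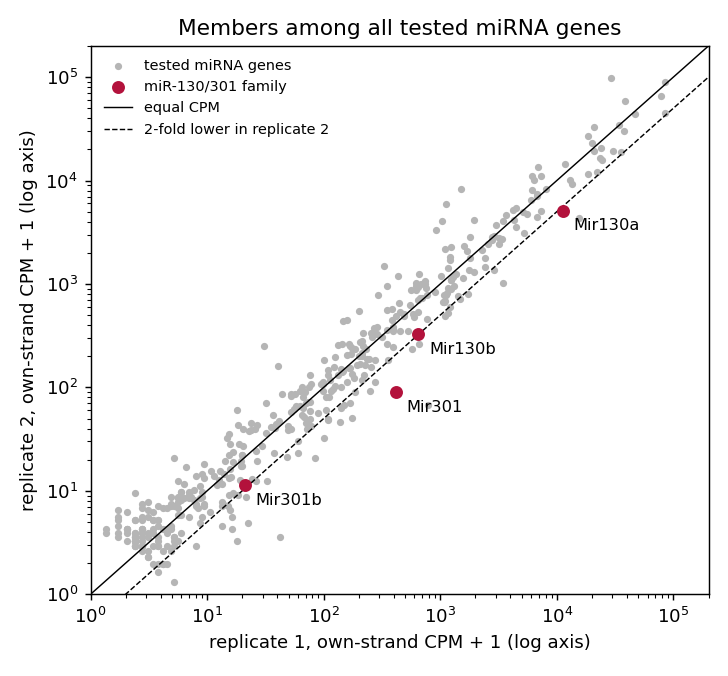
Own-strand CPM + 1 of each tested gene in replicate 1 (horizontal) and replicate 2 (vertical) on log axes, with the members in red, a solid line for equal CPM and a dashed line for 2-fold lower in replicate 2. Mir130a, Mir130b and Mir301b lie close to the dashed line over a range from 8163 to 15.2 CPM by mean, and Mir301 lies below it.

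Genes with a related seed went in both directions. The miR-148/152 genes have the seed CAGUGCA, with 6 bases in a row common to the family seed, shifted by 1 position, as in miR-148a-3p: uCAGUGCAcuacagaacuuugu. Mir148a was lower in replicate 2, with 1216 CPM in replicate 1 and 600.0 CPM in replicate 2 (log2 ratio -1.02), as was Mir152 with 392 and 352 CPM (-0.15), though Mir152 no longer passed the test without Mir122 in the totals (-0.05). Mir148b was higher there, with 159 and 204 CPM (0.36). With Mir721 at 0, 2 of the 3 tested genes of this list were lower and 1 higher by the binomial test, with a median log2 ratio of -0.15. Over all 444 tested genes 30.4% were lower and 28.6% higher in replicate 2, and a list of 3 genes says little beside these shares.

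The list of the vascular and Pparg circuit holds miRNAs reported to repress Pparg or to act with the family in pulmonary vessels. Of its 5 genes, 2 were lower in replicate 2, 1 was higher and 2 did not pass the binomial test, with a median log2 ratio of -0.06. These counts are near the shares over all tested genes, 30.4% lower and 28.6% higher. Mir322, the mouse form of miR-424, had 35458 CPM in replicate 1 and 18855 CPM in replicate 2 (-0.91), whereas its cluster partner Mir503 was higher in replicate 2, with 441 and 658 CPM (0.58). Mir27b, which represses Pparg as the family does, had 4280 and 4116 CPM (-0.06) and passed that test as lower, but the direction turned without Mir122 in the totals (0.05). Its paralog Mir27a had 774 and 780 CPM (adjusted p 0.87 in the exact binomial test), and its sign also turned with the scaling. Mir204, a miRNA of pulmonary artery smooth muscle, had 139 and 117 reads (log2 ratio -0.36) and did not pass the test. It passed as lower without strand (-0.44) and with TMM factors (-0.43).

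Some markers of other cell types also differed between the libraries. The 3 endothelial markers were all lower in replicate 2 and together had 84989 CPM in replicate 1 and 45825 CPM in replicate 2, nearly all of it Mir126a (-0.90). Mir222 had a log2 ratio of -1.16 and Mir221 one of -0.20, which no longer passed the test without Mir122 in the totals (-0.09). The share of all tested genes lower in replicate 2 is the 30.4% given above. Of the 5 blood markers, the red cell miRNAs Mir451a (-1.28) and Mir144 (-1.56) were lower in replicate 2 and Mir150, a lymphocyte miRNA, was higher (1.43). Mir142 and Mir223 did not pass the test, though Mir142 passed as lower with TMM factors (-0.15). The list summed to 1529 and 1574 CPM. None of the endothelial and blood markers was at 0 on the own strand. Counted without strand, Mir126a held only 16 and 8 reads and no longer passed the test. By that count 7.93% and 5.77% of the reads in the files were ambiguous and left out, against 0 on the own strand. Mir126b had 239604 and 139364 reads on its opposite strand, so reads of Mir126a are ambiguous when strand is ignored. The count without strand therefore does not test Mir126a. Mir451a and Mir142 had 0 reads in both libraries without strand. Fewer cells of a type and less RNA per cell cannot be told apart in such bulk tissue, and the part of these cells in the lower family counts was not tested.

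Mir122 and Mir206, a skeletal muscle miRNA, were higher in replicate 2. Mir122 had 29424 CPM in replicate 1 and 97850 CPM in replicate 2 (1.73). The 8 striated muscle markers summed to 929 and 3337 CPM, of which Mir206 (1.85) held 919 and 3305 CPM. Of the 4 tested genes of that list 3, Mir206, Mir499 and Mir133b, were higher in replicate 2, against 28.6% of all tested genes. Mir208b did not pass. The other 4, Mir1a-1, Mir1a-2, Mir133a-1 and Mir133a-2, had too few reads to test, and Mir133a-2 was at 0. Because reads that match several places are not assigned, these low counts do not show that the miRNAs were absent. The sum of the list may lack such reads. Without Mir122 in the totals every log2 ratio moved up by 0.11, and the ratios of the members were -1.02 for Mir130a, -0.88 for Mir130b, -2.10 for Mir301 and -0.83 for Mir301b. Whether the Mir122 and Mir206 reads came from other tissue was not tested, nor was their part in the remaining difference.

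Of the 3 markers of smooth muscle and fibroblasts, summing to 40274 and 34044 CPM, Mir143 was lower in replicate 2 (-0.31) and Mir145a (0.50) and Mir214 (0.31) were higher. The 4 markers of neuroendocrine cells, the kind of cell the medulla holds, summed to 39914 and 37795 CPM. Mir375 had 34144 and 34383 CPM, a difference whose sign turned with the scaling. The other 3, Mir7b (-0.76), Mir7-1 (-0.67) and Mir7-2 (-1.19), were lower in replicate 2, against 30.4% of all tested genes. The 6 neuron markers were at or near 0, with Mir124a-1, Mir124a-3, Mir9-1 and Mir9-2 at 0 in both libraries. Reads that match several places are not assigned, so these counts do not show that the miRNAs were absent. The lists held no miRNA that marks the adrenal cortex alone, so the label of that part was not checked.

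Genes most like each member were taken as the 3 nearest by log2(CPM + 1) over the 2 libraries, a measure with only 2 points per gene. For Mir130a these were Mir30e (15492 and 4326 CPM, distance 0.53), Mir99b (7307 and 5023 CPM, 0.62) and Mir17 (6768 and 4475 CPM, 0.75). For Mir130b they were Mir338 (525 and 349 CPM, 0.32), Gm26117 (652 and 261 CPM, 0.33) and Mir451a (567 and 234 CPM, 0.52). For Mir301 they were Mir24-2 (275 and 112 CPM, 0.67), Mir136 (248 and 90.3 CPM, 0.73) and Mir185 (782 and 66.2 CPM, 1.01). For Mir301b they were Mir196a-1 (18.3 and 11.7 CPM, 0.20), Mir302d (23.2 and 12.0 CPM, 0.28) and Mir505 (25.3 and 11.4 CPM, 0.34). No other member was among the nearest genes of a member.

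Counting without strand gave 31852 and 15790 reads for Mir130a, 3 and 1 more than on the own strand, and the same reads for Mir130b, Mir301 and Mir301b. The opposite strand held 3 and 1 reads at Mir130a and 0 at the other members. Levels without strand were higher, for example 14164 and 6152 CPM for Mir130a, because fewer reads were assigned in all, 2248772 in replicate 1 and 2566634 in replicate 2.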

How the data were processed

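The deposited values are raw counts for each miRNA gene, per the labels on mm10 and per the file descriptions with the M21 release of GENCODE. No source used here names the aligner or the counter. The values show that 1 column ignores strand, 1 takes the own strand and 1 the opposite strand of the gene, and the own-strand column was the main one. The 4 rows of unmapped, multiply mapped, unannotated and ambiguous reads stayed out of totals, and with them the own-strand counts sum to 7503044 and 8907701 reads. Reads of the CAST/EiJ allele were placed on the C57BL/6J genome, and the effect of strain differences was not tested.

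All 2202 identifiers matched the annotation. CPM were computed over own-strand gene counts. Genes whose counts in the 2 libraries sum to at least 10 were compared by an exact two-sided binomial test across all genes, with Benjamini-Hochberg adjustment at 0.05. The test was first run on simulated counts that held counting error only, so that run does not cover spread between animals. edgeR's quasi-likelihood test was not used, because setting 1 library against 1 leaves no residual degrees of freedom. P-values measure only the spread that counting gives when reads are taken as independent. Named genes were the members, list genes at 10 CPM or more in both libraries, genes with the family seed and the 3 genes nearest to each member. Some muscle and neuron list genes below that level were named as well. The members and lists were chosen with earlier results of these data known. Alternatives were other totals, TMM and DESeq2 factors, counts without strand, other pseudocounts and count minimums, and single libraries. Analyses used Python 3.11.15, numpy 2.4.6, pandas 2.3.3, scipy 1.17.1, R 4.3.3, edgeR 4.0.16 and DESeq2 1.42.0.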

Additional observations from a re-analysis of the deposited data

How the results depend on the processing

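Of 92 alternative values, 86 stayed within the SD between libraries, on the same side of the test, or within 1.5 times for counts of genes, and 0 reversed. Single libraries do so by construction for means of 2. Shares within the family without strand could hardly move either, because that count gives the members almost the same reads. The SD of 2 libraries is also wide, for example 229 CPM for Mir301 at a mean of 251 CPM, so staying within it is a weak check. All 28 alternative log2 ratios of the members were below 0 and passed the binomial test, which allows for counting error only. That test does not use the pseudocount, so the ratios with other pseudocounts passed by construction. They ran from -1.20 to -1.02 for Mir130a, -1.06 to -0.88 for Mir130b, -2.28 to -2.10 for Mir301 and -1.01 to -0.83 for Mir301b. With all reads in the file as the total, the means were 0.329% for the family, 3009 CPM for Mir130a, 179 CPM for Mir130b, 93.7 CPM for Mir301 (within its wide SD) and 5.59 CPM for Mir301b, since unassigned reads enter the total. Genes at least 2-fold lower in replicate 2 numbered 146 of 783 with no filter and 30 of 285 with a minimum of 100 counts, against 49 of 444, as more or fewer genes enter. For list genes, under scalings added after the data were seen, signs turned for Mir27b (0.049), Mir142 (0.019) and Mir223 (0.072) without Mir122, and for Mir27a (-0.066 and -0.055) and Mir375 (-0.066 and -0.055) without strand and with TMM factors. Some list genes that did not pass the test in the main setting passed under other scalings. These were Mir204 without strand (-0.44) and with TMM factors (-0.43), Mir142 with TMM factors (-0.15) and Mir27a without Mir122 (0.12). Mir375 passed under each of these scalings, with signs both ways. No paired analysis was possible because the series holds a single group. The 57 and 32 reads of Mir301b limit what can be said of it.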
